A study of Mus musculus with 262 samples.

Results

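The genes described here are 10 genes of calcium, magnesium and salt transport in the distal nephron of the mouse kidney, chosen by symbol from those known in the distal convoluted and connecting tubule. They are the channels Trpv5 and Trpm6, the calcium-binding proteins Calb1, S100g and Pvalb, the calcium exporters Slc8a1, Atp2b1 and Atp2b4, the sodium chloride cotransporter gene Slc12a3, and the tissue kallikrein gene Klk1. All 10 were present among the 47069 genes of the TPM tables (transcript abundances scaled to a fixed total in each sample) and the 24111 genes of the read count table. The rule uses their symbols and no measured value, but the genes were chosen with earlier results of these data known.

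RNA was sequenced from kidneys of male mice aged 2 months, in 5 kinds of single cell and 3 pairs of bulk groups. The single cells came from C57BL/6 mice and carried the authors' own type names: 74 principal cells, 87 intercalated cells of type A and 23 of type B, 32 non-epithelial cells and 19 cells of the proximal tubule. Cells of these types had been sorted on DBA, c-Kit, both, or PNA; DBA and PNA are lectins and c-Kit is the receptor encoded by Kit. The bulk pairs were 2 c-Kit and 2 DBA fractions of C57BL/6 mice, 2 GFP-positive and 2 GFP-negative fractions of the strain Atp6v1b1GFP, and 11 CCD and 8 cTAL tubules dissected from C57BL/6 mice. CCD is the cortical collecting duct and cTAL the cortical thick ascending limb. The strain name ties the GFP to Atp6v1b1, which encodes a subunit of the proton pump of intercalated cells; the sources used here do not say how the reporter was built. Nothing in the labels says how many animals gave the bulk samples, so p-values measure the spread between these samples, which may be technical. In every bulk sample, fewer cells of a type and less RNA per cell cannot be told apart.

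In the distal convoluted and connecting tubule, calcium enters the cell from the urine through the channel TRPV5. It is carried across the cell by calbindin-D28k and calbindin-D9k, the products of Calb1 and S100g, and leaves to the blood through the exchanger NCX1, the product of Slc8a1, and the plasma membrane pumps encoded by Atp2b1 and Atp2b4. TRPM6 is the apical magnesium channel of the distal convoluted tubule, where the thiazide-sensitive cotransporter NCC, the product of Slc12a3, takes up salt, and parvalbumin (Pvalb) is a calcium buffer of the same cells. Klk1 encodes renal kallikrein, a secreted serine protease classically placed in the connecting tubule.

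The genes lie on 10 different chromosomes of GRCm38, as annotated in GENCODE M21. The entry channel genes are Trpv5 at chr6:41652173-41680769 on the minus strand and Trpm6 at chr19:18749983-18892511 on the plus strand. The binding protein genes are Calb1 at chr4:15881264-15908064 on the plus strand, S100g at chrX:162961992-162964599 on the minus strand and Pvalb at chr15:78191114-78206400 on the minus strand. The exporter genes are Slc8a1 at chr17:81373105-81738377 on the minus strand, Atp2b1 at chr10:98914406-99026143 on the plus strand and Atp2b4 at chr1:133699457-133801041 on the minus strand. Slc12a3 lies at chr8:94329201-94366214 and Klk1 at chr7:44225360-44229618, both on the plus strand.

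Promoter sequences of 9 of the 10 genes were matched by symbol in RefSeq (GRCm38.p6). S100g and Klk1 had the highest levels per length of the 10 genes in the GFP-positive and c-Kit samples. These 2 genes rose together in the GFP and c-Kit comparisons below. Between CCD and cTAL tubules they went opposite ways, with log2 differences of 4.10 for S100g and -5.60 for Klk1. The pair was chosen on those levels and rises, and the 250 bases before each annotated start are shown. They are written 5′ to 3′ on each gene's own strand, with matches to AGGTCA, a half-site of nuclear receptors, or to its reverse complement TGACCT in capitals.
S100g, chrX:162964600-162964849, minus strand: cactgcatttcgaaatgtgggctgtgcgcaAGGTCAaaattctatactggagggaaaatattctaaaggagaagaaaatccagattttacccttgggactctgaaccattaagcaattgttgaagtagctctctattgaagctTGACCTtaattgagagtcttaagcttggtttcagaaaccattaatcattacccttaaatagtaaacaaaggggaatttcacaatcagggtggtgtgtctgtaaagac
Klk1, chr7:44225110-44225359, plus strand: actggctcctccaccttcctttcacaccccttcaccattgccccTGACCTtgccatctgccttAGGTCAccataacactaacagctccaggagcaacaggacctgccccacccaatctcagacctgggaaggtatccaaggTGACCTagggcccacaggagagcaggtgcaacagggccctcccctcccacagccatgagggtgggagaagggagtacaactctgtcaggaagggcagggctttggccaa
The S100g window held 2 matches and the Klk1 window 3, and no other window of the 9 genes held one. The starts are those of RefSeq. For Slc8a1 and Trpm6 the bases after the window did not open a GENCODE transcript. The Atp2b4 window (chr1:133753748-133753997) lay inside the span of the gene given above. Other starts of these genes were not searched. Of 32851 promoter windows of the same length, 14.0% held AGGTCA on either strand. TATAAA was found 43 to 38 bases before the start of Trpv5 and 32 to 27 bases before the start of Slc12a3, and in 12.4% of all windows. GTTAAT, a half-site of HNF1 factors, was searched on both strands as well; these letters were in none of the windows of the 9 genes and in 6.43% of all windows. No matches overlapped one another. A match describes the letters only.

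The 4 GFP libraries held 35530885 to 40815091 reads in genes. TPM values keep no depth, and the depth of the other samples is unknown. Each fraction was checked against marker genes of other cell types. In the GFP-positive samples the 3 shared intercalated markers Atp6v1b1, Foxi1 and Atp6v0d2 summed to 1578 and 2147 CPM (read counts scaled to a common library total), against 21.9 and 35.5 CPM in the GFP-negative samples. The 6 principal cell markers were also higher there, at 772 to 1356 against 190 to 215 CPM, while the 5 proximal tubule markers were lower, at 1735 to 2784 against 14832 to 15417 CPM, as were the 6 non-epithelial markers, at 91.8 to 112 against 511 to 1208 CPM. Markers of the thick ascending limb were high in both, at 9826 to 14687 CPM in GFP-positive and 8233 to 8575 CPM in GFP-negative samples. Among the intercalated markers, Atp6v1b1 is the gene the strain is named for, so its rise is no independent check. Foxi1 and Atp6v0d2 averaged 489 and 959 CPM in GFP-positive and 4.09 and 11.4 CPM in GFP-negative samples. The CCD tubule headed m2_CCD2 stood apart with 7621 genes at 1 TPM or more, against 10323 to 14004 in the other CCD tubules.

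In GFP-sorted cells, 9 of the 10 genes rose in the GFP-positive samples, by 3.73-fold (Pvalb) to 45.0-fold (Trpv5), and none fell. The tenth, the calcium pump gene Atp2b1, did not pass the test. Calls are an adjusted p under 0.05 in edgeR's quasi-likelihood test with Benjamini-Hochberg adjustment over 15671 genes; of all these genes 15.2% were called higher and 17.3% lower, 32.6% in all. The median log2 difference was 3.55 over the 10 genes and 0.02 over all genes tested. Intercalated and principal cell markers rose with these genes and proximal tubule and non-epithelial markers fell, as given above, and their part in the result was not tested.

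The apical calcium channel gene Trpv5 had 2803 and 2247 reads in the GFP-positive samples and 83 and 36 in the GFP-negative samples. That is 75.3 and 59.4 CPM against 1.94 and 1.05 CPM, a log2 difference of 5.47 ± 0.34 (SE; adjusted p = 4.31e-05). Both positive samples lay far above both negative ones, and the authors' RPKM table listed Trpv5 at 0 in the latter. The magnesium channel gene Trpm6 had 50.5 and 28.7 CPM against 6.07 and 5.18 CPM, a log2 difference of 2.81 ± 0.32 (adjusted p = 3.07e-04). Its groups did not overlap, but the call was lost when limma was run on RPKM (log2 difference 1.45, adjusted p = 0.234).

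Both calbindin genes rose, Calb1 by 25.5-fold and S100g by 24.5-fold on the means. Calb1 had 425 and 397 CPM against 19.0 and 13.2 CPM (log2 difference 4.67 ± 0.24, adjusted p = 3.22e-05). S100g had 516 and 933 CPM against 30.1 and 29.1 CPM (log2 difference 4.61 ± 0.31, adjusted p = 4.68e-05). The 2 positive samples of S100g differed more from each other than those of Calb1, and all 4 values of each gene separated by group. The third buffer gene, Pvalb, was low, with 352 and 216 reads in the positive and 129 and 36 in the negative samples. Its log2 difference was 1.89 ± 0.56 (adjusted p = 0.0325). This call rested on single libraries: without GFP-positive replicate 1 the adjusted p was 0.209 (log2 difference 1.45), and without GFP-negative replicate 2 it was 0.0715 (log2 difference 1.33).

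Among the exporters, the exchanger gene Slc8a1 showed the change and the pumps were unlike each other. Slc8a1 had 1882 and 1437 CPM in the GFP-positive against 54.4 and 32.8 CPM in the GFP-negative samples, 38.1-fold on the means (log2 difference 5.25 ± 0.32, adjusted p = 4.31e-05). Atp2b4 had 79.2 and 58.9 CPM against 12.6 and 5.77 CPM (log2 difference 2.90 ± 0.37, adjusted p = 5.19e-04). The other pump gene, Atp2b1, had 164 and 138 CPM against 129 and 106 CPM. Its groups did not overlap, yet the difference of 0.36 on the log2 scale had a 95% interval from -0.06 to 0.78 and an adjusted p of 0.169.

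The cotransporter gene Slc12a3 had 1273 and 713 CPM in the GFP-positive against 123 and 104 CPM in the GFP-negative samples (log2 difference 3.12 ± 0.30, adjusted p = 1.21e-04). Klk1 had 3536 and 4279 CPM against 223 and 275 CPM (log2 difference 3.97 ± 0.25, adjusted p = 4.31e-05). On the length-scaled RPKM values, Klk1 was the most abundant of the 10 genes in GFP-positive cells at 4637 ± 668 RPKM (SD, n = 2), followed by S100g at 1576 ± 631 RPKM and Slc12a3 at 289 ± 151 RPKM. Calb1 stood at 93.8 ± 5.53, Slc8a1 at 47.7 ± 11.9, Atp2b1 at 40.0 ± 5.80, Trpv5 at 23.0 ± 4.44, Atp2b4 at 21.7 ± 3.38, Pvalb at 10.5 ± 1.02 and Trpm6 at 6.57 ± 4.94 RPKM. Trpv5 and Atp2b4 lay within their spread of each other in this order, as did Slc8a1 and Atp2b1, and Pvalb and Trpm6.

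**Figure D1:**
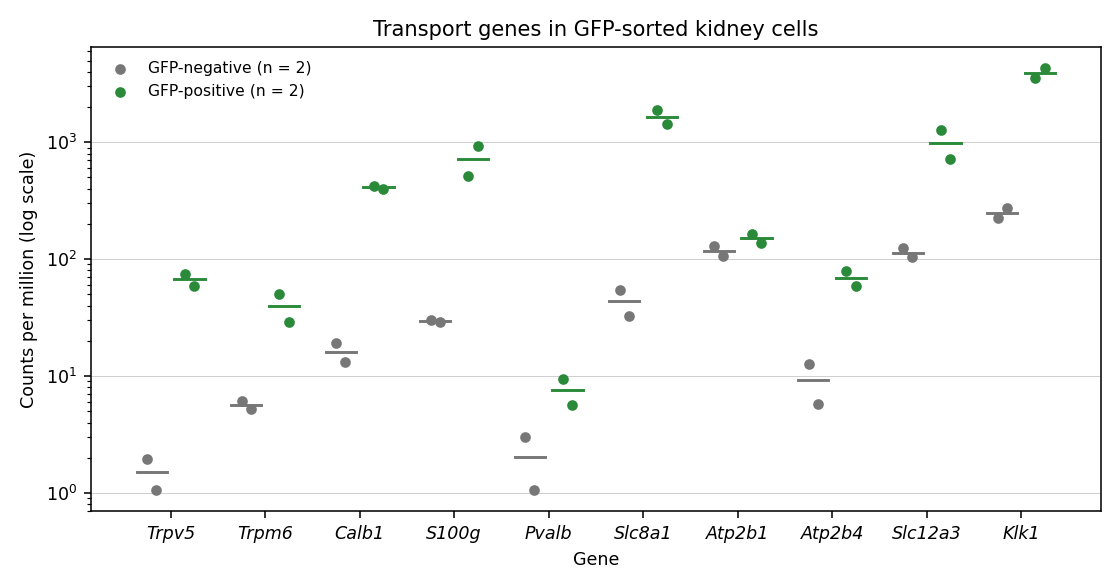
CPM (log axis) of the 10 genes in 2 GFP-negative (grey) and 2 GFP-positive (green) samples; points are samples and lines are group means. The green points lie above the grey ones for every gene, and the gap is narrowest for Atp2b1 (138 and 164 against 106 and 129 CPM).

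Other genes of distal salt transport rose with Slc12a3. Of the 10 genes on the list of distal convoluted tubule salt transport and its kinases, 8 rose and none fell, with a median log2 difference of 1.72. Bsnd, which encodes barttin, had 118 ± 7.09 CPM (SD, n = 2) in GFP-positive against 21.4 ± 4.99 CPM in GFP-negative samples. It is a textbook gene of intercalated cells and the thick ascending limb too. Klhl3, which encodes an adaptor that targets WNK kinases for degradation, had 25.6 ± 14.1 against 4.10 ± 1.70 CPM, and the transcription factor gene Sall3 had 19.0 ± 4.67 against 3.93 ± 0.84 CPM.

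The other calcium and magnesium genes were split, where 15.2% of all genes tested were called higher and 17.3% lower. Among 11 further calcium transport genes, 7 were tested, 2 rose and 1 fell. Those that rose were Atp2b2, a pump gene (log2 difference 2.42 ± 0.31), and Trpv6, the gene of the second epithelial calcium channel (1.75 ± 0.35); S100a10, whose product binds TRPV5, fell by 1.30 on the log2 scale. Of 14 magnesium genes tested 4 rose and 5 fell: the basolateral potassium channel gene Kcnj10 reached 193 ± 15.9 CPM against 55.5 ± 7.91 CPM, and the carrier gene Slc41a2 stood at 20.3 ± 1.09 against 72.2 ± 2.01 CPM. On the list of hormone control of distal calcium, 1 of 10 genes rose and 6 fell. The riser was Casr, the calcium-sensing receptor gene, at 330 ± 106 against 91.1 ± 11.0 CPM. Cyp27b1 and Cyp24a1, which encode the enzymes that make and break down active vitamin D, fell by 2.75 and 2.10 on the log2 scale.

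The c-Kit and DBA fractions, from cells sorted on that receptor or on a lectin that labels collecting duct, divided the 10 genes. Klk1, S100g and Trpv5 were higher in the c-Kit fraction, Calb1 and Atp2b1 were higher in the DBA fraction, and Slc8a1, Trpm6, Slc12a3 and Pvalb did not pass the test. Atp2b4 was under the mean of 1 TPM needed for testing. These calls come from limma on log2(TPM + 1), where the added 1 understates the change of low genes, with Benjamini-Hochberg adjustment over 14341 genes. Of these genes 16.1% were called higher in c-Kit and 28.1% lower, 44.3% in all, so 5 of 9 tested members is near the background. The median log2 difference was 0.15 over the 9 members and -0.11 over all genes; quantile normalization moved the median of all genes to 0.02 and the split of calls from 2315 higher and 4033 lower to 3055 and 3072, and left the direction of the 5 called members as it was.

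Klk1 had 5956 and 6122 TPM in the c-Kit samples and 904 and 896 TPM in the DBA samples, 6.71-fold on the means (log2 difference 2.75 ± 0.06, adjusted p = 1.43e-06). S100g had 4522 and 4403 TPM against 1274 and 1186 TPM (log2 difference 1.86 ± 0.07, adjusted p = 6.95e-06). Both genes therefore had tight replicates and a wide gap between the fractions. The 23 Klk1b paralogs, near-identical neighbours of Klk1 whose reads the counting could have split, summed to 0.703% of the Klk1 level in c-Kit and 0.649% in DBA; they were not summed in the GFP tables. Trpv5 had 21.8 and 13.9 TPM against 9.26 and 8.87 TPM (log2 difference 0.88 ± 0.20, adjusted p = 0.0140), with unequal c-Kit samples. Its call was lost without DBA replicate 1 (adjusted p = 0.114), without DBA replicate 2 (0.136) and without the filter on low values (0.0686).

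Calb1 went the other way from S100g, its partner buffer. It had 313 and 296 TPM in c-Kit against 499 and 433 TPM in DBA, 1.53-fold higher in DBA (log2 difference -0.61 ± 0.08, adjusted p = 0.00131). Atp2b1 had 11.8 and 11.6 against 18.8 and 20.8 TPM (log2 difference -0.71 ± 0.11, adjusted p = 0.00268), and lost its call without DBA replicate 2 (adjusted p = 0.0573). Slc12a3 had 43.2 and 36.9 TPM in c-Kit and 33.6 and 37.1 TPM in DBA, with overlapping groups (log2 difference 0.17, 95% interval -0.08 to 0.43). Slc8a1 had 13.4 and 11.3 against 10.6 and 11.3 TPM (log2 difference 0.15, 95% interval -0.17 to 0.48). These 2 genes thus stood at like levels in both fractions, with intervals that leave room for differences of under 0.5 on the log2 scale. Trpm6 had 1.59 and 1.24 against 2.59 and 2.18 TPM (adjusted p = 0.117), and without the variance trend it was called lower in c-Kit (log2 difference -0.49, adjusted p = 0.0401). Pvalb had 3.68 and 2.68 against 3.79 and 6.89 TPM (adjusted p = 0.146), and Atp2b4 had 0.65 and 0.59 against 0.79 and 1.30 TPM.

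**Figure D2:**
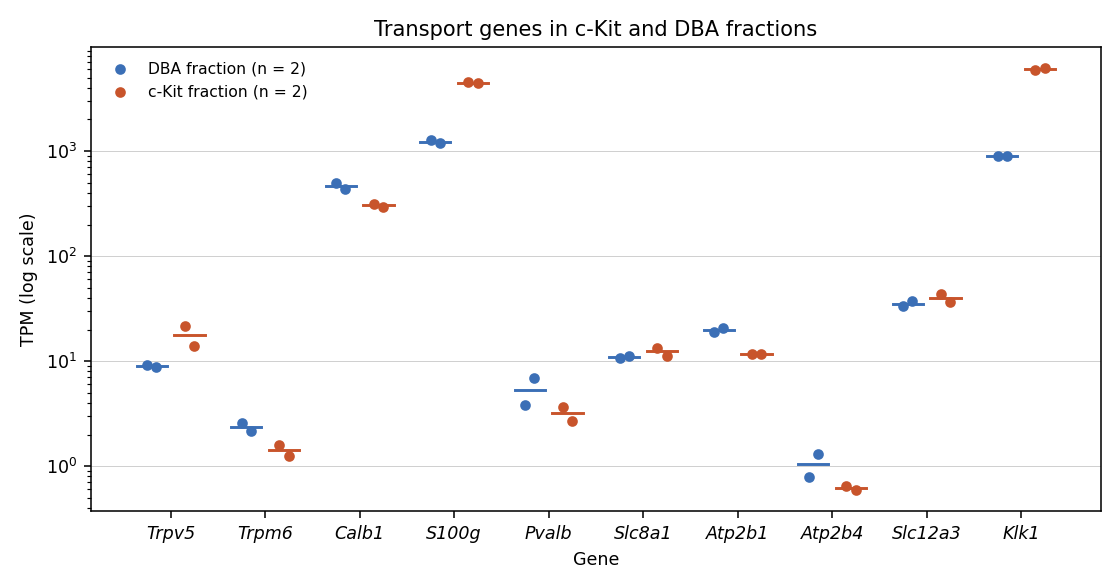
TPM (log axis) of the 10 genes in 2 DBA (blue) and 2 c-Kit (orange) fractions; points are samples and lines are group means. Klk1 and S100g are far higher in c-Kit, Calb1 and Atp2b1 are higher in DBA, and the points of Slc12a3 and Slc8a1 overlap.

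Marker genes of several cell types differed between these fractions. The 4 type A intercalated markers (Slc4a1, Aqp6, Kit and Dmrt2) summed to 3059 and 3097 TPM in c-Kit and 61.1 and 73.1 TPM in DBA. The 3 type B markers summed to 636 and 671 against 104 and 124 TPM. All 7 were called higher in c-Kit. Kit encodes the receptor used for the sort, so its rise (756 against 18.2 TPM on the means) is no independent check. Slc4a1 averaged 1727 against 31.6 TPM, Aqp6 287 against 8.08 TPM and Dmrt2 308 against 9.22 TPM. The 6 principal cell markers summed to 2519 and 3392 against 22287 and 24841 TPM and the 5 proximal tubule markers to 1289 and 1451 against 2931 and 3011 TPM, all called lower. The 6 non-epithelial markers summed to 4373 and 4509 TPM in c-Kit and 11450 and 12023 TPM in DBA; most of that sum was Cd74, and 3 of the 6 were called lower and 3 not called. The 4 thick ascending limb markers overlapped, at 562 and 991 against 700.5 and 828.5 TPM, with 1 called lower and 3 not called. No marker of these lists was at 0 in every sample of a fraction. Their part in the differences was not tested.

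The calcium channel pair split between the fractions: Trpv6 had 3.21 ± 0.55 TPM (SD, n = 2) in c-Kit and 16.3 ± 0.23 TPM in DBA, against the higher c-Kit level of Trpv5. Atp2b2 had 3.29 ± 0.29 against 21.5 ± 2.36 TPM, and Anxa2, whose product forms a complex with S100A10, had 96.3 ± 0.07 against 226 ± 5.11 TPM. In all, 1 of the 7 further calcium transport genes tested rose in c-Kit and 5 fell. Of 14 magnesium genes tested, 3 rose and 5 fell, near the shares of 16.1% higher and 28.1% lower over all genes. The carrier gene Slc41a3 had 40.7 ± 1.65 TPM in c-Kit against 6.63 ± 0.43 TPM in DBA, and Fxyd2, the sodium pump gamma subunit gene, had 5343 ± 330 against 1866 ± 95.6 TPM. Egfr, the receptor gene for the magnesiotropic hormone EGF, had 5.45 ± 0.68 against 26.6 ± 1.81 TPM, and the potassium channel gene Kcnj16 had 69.9 ± 6.34 against 233 ± 0.10 TPM.

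Of the salt transport list, 4 of 9 tested genes rose in c-Kit and 1 fell, where 16.1% of all genes were called higher and 28.1% lower. Bsnd led with 447 ± 14.0 against 26.3 ± 3.54 TPM, and the kinase gene Wnk1 had 103 ± 13.9 against 29.2 ± 2.65 TPM. Stk39, which encodes the kinase SPAK that acts on NCC, was lower at 63.4 ± 4.40 against 130 ± 7.09 TPM. Of the hormone list, 4 of 9 rose, with Casr at 20.1 ± 1.26 against 10.5 ± 1.12 TPM, and 3 fell, with Cyp27b1 at 2.55 ± 0.31 against 6.35 ± 1.01 TPM and the retinoid receptor gene Rxra at 25.9 ± 2.70 against 44.3 ± 1.86 TPM. Gnas, the stimulatory G protein gene, had 1053 ± 15.0 against 698 ± 1.202 TPM.

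Single tubules placed Calb1 and Klk1 at opposite ends. Calb1 was 152-fold higher in CCD than in cTAL tubules, and Klk1 was 40.9-fold higher in cTAL than in CCD tubules, with no overlap for either gene. The fold of Calb1 depends on the tubule m7_cTAL1: without it, the cTAL mean fell from 2.47 to 0.76 TPM and the fold was 490, a value computed after seeing the data. S100g, Slc8a1 and Trpv5 were also called higher in CCD, while Slc12a3 and Atp2b1 did not pass the test, and Trpm6, Pvalb and Atp2b4 were too low to be tested. Calls are from limma on log2(TPM + 1), with adjustment over 13520 genes, of which 13.2% were called higher in CCD and 5.5% lower, 18.7% in all. The median log2 difference of all genes was 0.31, and quantile normalization moved it to -0.03; Calb1, S100g, Slc8a1 and Klk1 kept their calls and directions under it. It also moved the split of all calls from 1782 higher and 744 lower to 1221 and 1244. The columns of the tubules carry prefixes m1 to m7 whose meaning is not stated, and several tubules share one.

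Calb1 ranged from 254 to 588 TPM over the 11 CCD tubules, with a median of 351 TPM, and from 0.16 to 14.4 TPM over the 8 cTAL tubules, with a median of 0.62 TPM. The log2 difference was 7.40 ± 0.38 (adjusted p = 5.44e-13). Calb1 varied little among the CCD tubules, with an SD of 91.5 around a mean of 374 TPM. S100g was far more variable: its CCD tubules ran from 110 to 4602 TPM with a median of 1413 TPM, and its cTAL tubules from 27.8 to 143 TPM with a median of 56.7 TPM. One CCD tubule lay inside the cTAL range, and the log2 difference was 4.10 ± 0.61 (adjusted p = 2.26e-05).

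Klk1, classically a connecting tubule gene, ran from 3526 to 13154 TPM in the cTAL tubules, with a median of 9277 TPM, and from 79.0 to 582 TPM in the CCD tubules, with a median of 223 TPM. The log2 difference was -5.60 ± 0.37 (adjusted p = 4.25e-11). The Klk1b paralogs summed to 1.04% of Klk1 in cTAL and 4.46% in CCD. The cTAL label held in its markers: Umod, Slc12a1, Cldn16 and Cldn10 summed to 33337 to 53193 TPM in cTAL against 35.2 to 686 TPM in CCD tubules, and the 6 principal cell markers to 43.6 to 213 TPM against 25196 to 46522 TPM. The other 4 connecting tubule genes of the set stayed low in cTAL, at medians of 0.62 TPM for Calb1, 56.7 TPM for S100g and 0 TPM for both Slc8a1 and Trpv5.

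Slc8a1 ran from 0.10 to 16.7 TPM in the CCD tubules, with a median of 6.12 TPM. It was listed at 0 in 7 of 8 cTAL tubules and at 7.02 TPM in the tubule m2_cTAL1, so the groups overlapped. The log2 difference was 2.38 ± 0.56 (adjusted p = 0.00342), and 2.75 without that tubule. The lowest CCD value was that of m2_CCD2, the library with the fewest genes, and without it the log2 difference was 2.64 (adjusted p = 4.29e-04). Trpv5 reached 1 TPM in 7 of 11 CCD tubules, was listed at 0 in the other 4, and peaked at 19.9 TPM; in cTAL its highest value was 0.02 TPM. Its log2 difference of 1.70 ± 0.54 passed narrowly (adjusted p = 0.0289). The call was lost without m4_CCD1 (adjusted p = 0.0520), without m5_CCD1 (0.0527), with a pseudocount of 5 (0.0546), without the low-value filter (0.0809), with 1 mean per column prefix (0.0928) and after quantile normalization (0.151).

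Atp2b1 ran from 0.01 to 10.9 TPM in CCD, with a median of 6.07 TPM, and from 2.42 to 21.0 TPM in cTAL, with a median of 13.0 TPM. The groups overlapped and the log2 difference of -0.90 had a 95% interval from -1.90 to 0.11 (adjusted p = 0.229). Without m2_CCD2, which held the lowest value, the difference was -0.63 (adjusted p = 0.280); after quantile normalization it was called lower in CCD (log2 difference -1.57, adjusted p = 0.00609). Slc12a3 was scarce in both segments, at 0 to 8.65 TPM in CCD with a median of 0.09 TPM and 0 to 2.05 TPM in cTAL with a median of 0.11 TPM. Its log2 difference was 0.39 with a 95% interval from -0.50 to 1.28, and it changed sign under quantile normalization, to -0.30. Trpm6 was listed at 0 in all 8 cTAL and in 5 of 11 CCD tubules, with a highest value of 2.41 TPM. Pvalb did not exceed 0.93 TPM and Atp2b4 did not exceed 0.67 TPM in any tubule. The 3 genes that mark the distal convoluted tubule, Slc12a3, Trpm6 and Pvalb, were thus at or near 0 in most tubules of both segments.

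**Figure D3:**
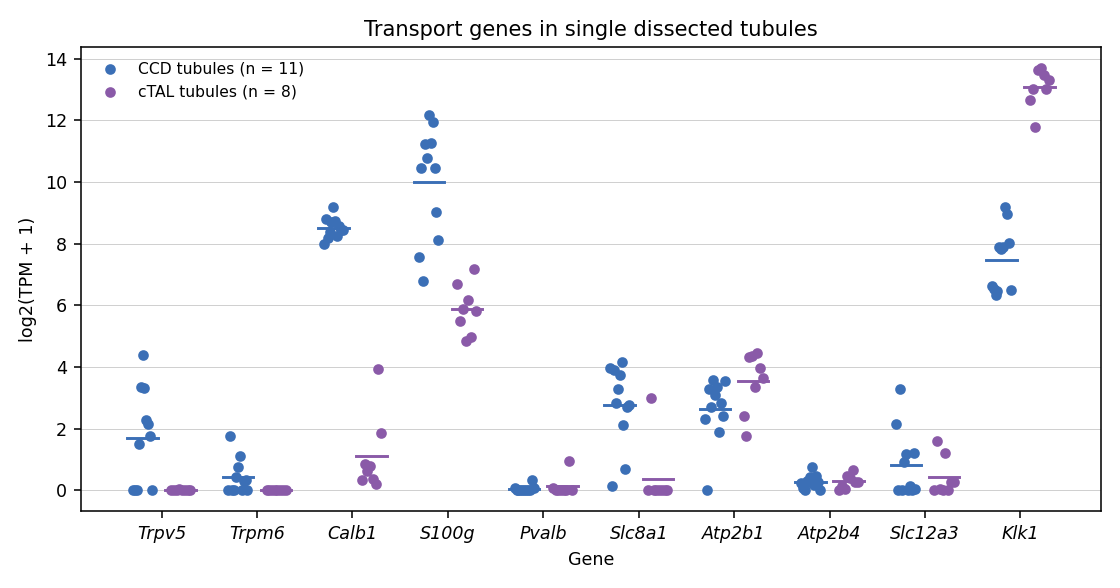
log2(TPM + 1) of the 10 genes in 11 CCD (blue) and 8 cTAL (purple) tubules; each point is a tubule and lines are group means of the log values. Calb1 is far higher in the CCD points (254 to 588 TPM) and Klk1 is highest in the cTAL points (3526 to 13154 TPM). Pvalb and Atp2b4 stay under 1 TPM in both. Most points of Trpm6 and Slc12a3 are also low, with highest values of 2.41 and 8.65 TPM in CCD.

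Among the CCD tubules the genes did not move as one. Spearman's rho over the 11 tubules was 0.79 for Trpv5 with S100g, 0.63 for Trpv5 with Klk1, 0.56 for Calb1 with both Trpv5 and S100g, and -0.17 for Calb1 with Slc8a1. The 5 genes most like Calb1 over these tubules, of 8039 with a mean of at least 10 TPM, were Usp22 (rho 0.95), Mboat2 (0.94), Atg13 (0.94), Ppip5k2 (0.93) and Neurl3 (0.92). These correlations describe 11 points that share column prefixes and differ in library quality.

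Most other calcium transport genes tested were higher in CCD tubules. Over all genes tested, 13.2% were called higher in CCD and 5.5% lower, and the 2 risers of the magnesium list below are near that share. Of 7 further calcium transport genes tested, 6 rose in CCD and none fell: Trpv6 had 19.4 ± 15.4 TPM (SD, n = 11) against 0.04 ± 0.08 TPM (n = 8), Atp2b2 had 12.0 ± 12.4 against 0.04 ± 0.05 TPM, S100a10 had 602 ± 127 against 282 ± 85.6 TPM, and the calmodulin gene Calm3 had 86.6 ± 22.3 against 43.5 ± 10.2 TPM. The hormone list held 1 riser, Rxra, and 2 fallers of 7 tested. Pth1r, the parathyroid hormone receptor gene, had 25.8 ± 31.6 TPM in CCD against 365 ± 93.1 TPM in cTAL, and Casr had 21.6 ± 13.7 against 113 ± 50.3 TPM. On the magnesium list 2 of 14 tested genes rose and 4 fell, led by Egf, the magnesiotropic hormone gene, at 28.8 ± 19.1 TPM in CCD and 8646 ± 2101 TPM in cTAL. Slc41a3 had 20.9 ± 15.2 against 0.55 ± 1.57 TPM, and Fxyd2 had 1137 ± 473 against 4121 ± 1242 TPM. On the salt list 2 of 9 rose and 1 fell: Wnk4, a kinase gene upstream of NCC and its thick limb relative, had 69.5 ± 19.7 TPM in CCD against 334 ± 69.5 TPM in cTAL, and the transcription factor gene Emx1 had 2.82 ± 1.81 TPM against a level near 0.

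In single cells, Calb1, Klk1, S100g and Atp2b1 were each found in all 5 types, with Calb1 in nearly every principal cell. The other 6 genes were found in 10 cells or fewer. Each type counts as 1 sample, since no animal is named for any cell, so no test was made and the intervals cover counting error only. The exact 95% intervals are Clopper-Pearson intervals, and detection means at least 1 TPM. The median number of genes at 1 TPM or more ran from 2704 in type A cells to 3253 in proximal tubule cells.

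Of the 74 principal cells 71 had Calb1 (95.9%, interval 88.6% to 99.2%), with a mean of 896 and a median of 675 TPM and 22 cells at 1000 TPM or more. Detection was lower elsewhere, in 6 of 23 type B cells (median 0.05 TPM), 45 of 87 type A cells (1.03 TPM), 18 of 32 non-epithelial cells (2.08 TPM) and 11 of 19 proximal tubule cells (5.07 TPM). Means stood above these medians, at 20.9 TPM in type B, 33.1 in type A, 112 in non-epithelial and 164 TPM in proximal tubule cells. Of the non-epithelial cells 6 reached 100 TPM or more and of the proximal tubule cells 5, with highest values of 1290 and 1284 TPM. Non-epithelial_cell_4 had 449 TPM of Calb1 with 1858 TPM of the principal cell marker Aqp2 and 18249 TPM of Cd74. Proximal_tubule_cell_15 had 11.7 TPM of Calb1 with 3113 TPM of Aqp2. Both cells were looked at for their Trpm6 or Slc8a1, so they need not be like the cells highest in Calb1. Whether such libraries held RNA of more than 1 cell was not tested. In type A cells detection differed with the running number of the columns, at 13 of the first 43 and 32 of the last 44 cells, and what that number stands for is not stated. The genes most like Calb1 over all single cells, of 6266 compared, were Hsd11b2 (Spearman's rho 0.75), Aqp2 (0.75), Fxyd4 (0.72), Kcne1 (0.71) and Tmem229a (0.70). The first 3 of these are principal cell markers; the cells share cell type and depth, so the values are a description.

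Klk1 was highest in type B cells, where it was detected in 23 of 23 (interval 85.2% to 100%) with a mean of 14344 and a median of 914 TPM. A single cell at 113272 TPM held 34.3% of that sum, and 11 cells were at 1000 TPM or more. In type A cells it was detected in 78 of 87 with a mean of 2318 and a median of 207 TPM, and 27 cells were at 1000 TPM or more. Principal cells had a median of 4.99 TPM, proximal tubule cells 2.51 TPM and non-epithelial cells 6.90 TPM, so the intercalated types had the highest medians. Non-epithelial cells overlapped them in other measures: 28 of 32 had Klk1, the mean was 839 TPM and 4 cells were at 1000 TPM or more. Detection in principal cells was 11 of the first 37 and 35 of the last 37 by running number. In type B cells the median was 86.8 TPM over the first 11 cells and 6167 TPM over the last 12. Of the 23 type B cells, 17 had been sorted on PNA, a sort that no other type carried. Type B and that sort therefore cannot be told apart for most of these cells. The Klk1b paralogs summed to 0.591% of Klk1 in type B, 3.37% in type A, 3.40% in non-epithelial, 10.4% in principal and 34.7% in proximal tubule cells.

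S100g was spread over the intercalated types and uneven within each. Of the type A cells, 61 of 87 had it (mean 427, median 17.2 TPM), as did 16 of 23 type B cells (mean 535, median 7.32 TPM), 41 of 74 principal cells (mean 362, median 1.40 TPM), 16 of 32 non-epithelial cells (median 1.15 TPM) and 7 of 19 proximal tubule cells (median 0.13 TPM). The mean of 594 TPM in non-epithelial cells was the highest of the 5 types, but 79.2% of its sum lay in 1 cell; without that cell the mean was 127 TPM. All 41 principal cells with S100g also had Calb1, while 30 had Calb1 without S100g. In type A cells 55 had both S100g and Klk1, 23 had Klk1 alone and 6 had S100g alone. As 71 of 74 principal cells had Calb1 and 78 of 87 type A cells had Klk1, these overlaps do not show that the genes go together.

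Atp2b1 was the one exporter detected widely, in 46.0% of all cells. Its median was 11.5 TPM in proximal tubule cells (13 of 19 detected), 3.94 TPM in non-epithelial cells (19 of 32), 0.73 TPM in type A cells (41 of 87), 0.16 TPM in principal cells (29 of 74) and 0.05 TPM in type B cells (6 of 23). Its order of types was thus led by cells outside the collecting duct. Atp2b4 was detected in 0 cells of any type, which allows a share of cells at that level of up to 1.28% if 3 cells are taken as the limit, and up to 1.56% by the exact interval.

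The other 5 genes were seen in few cells. Trpm6 was detected in 10 cells, of which 7 were among the 74 principal cells (9.46%, interval 3.89% to 18.5%), and Slc8a1 in 7 cells, 3 of them principal. Trpv5 was detected in 5 cells, 3 of them principal. One of these, headed Principal_cell_27, had 441 TPM of Trpv5 with 6263 TPM of S100g and 3233 TPM of Calb1, next to 2322 TPM of Aqp2, the water channel gene of principal cells. It held Slc8a1 and Slc12a3 at 0.

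Slc12a3 was detected in 2 cells and Pvalb in 1. A single cell named as principal, headed Principal_cell_46, had 483 TPM of Slc12a3 and 133 TPM of Pvalb, the pair that marks the distal convoluted tubule, with 251 TPM of Calb1 and no Trpm6. The same cell had 288 TPM of Aqp2, 510 TPM of Hsd11b2 and 630 TPM of Atp6v1b1. Without that cell the mean of Slc12a3 in principal cells was 0.0058 TPM and that of Pvalb was 0. No caller of doublets was run, and whether this library held 1 cell or more was not tested. No gene followed Slc12a3 closely over all cells: the 5 highest values of Spearman's rho were 0.25 to 0.28, for Gm16136, Cd59b, Lyplal1, Mrps10 and Pygm, which in a gene seen in 2 cells says little.

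**Figure D4:**
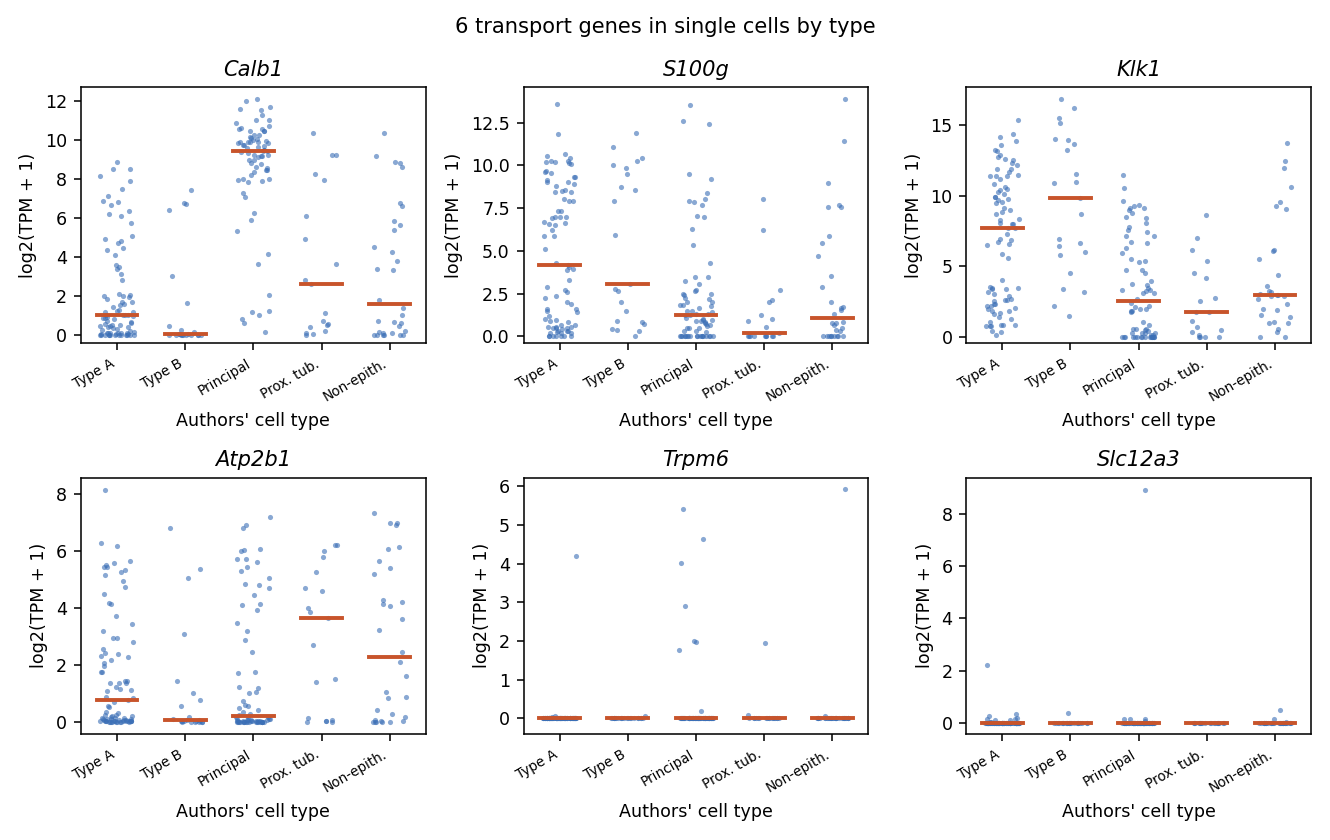
log2(TPM + 1) of 6 of the genes in single cells by the authors' cell type; each point is a cell and orange lines are medians. Calb1 fills the principal cells (median 675 TPM), Klk1 is highest in type B and type A cells, and Slc12a3 stands above 0 in few cells, with 1 principal cell at 483 TPM.

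The 3 bulk comparisons share no samples, so the values of each gene can be set side by side. Klk1 differed by 3.97 between GFP-positive and GFP-negative samples, by 2.75 between c-Kit and DBA and by -5.60 between CCD and cTAL, all on the log2 scale. Calb1 differed by 4.67, -0.61 and 7.40, and S100g by 4.61, 1.86 and 4.10 in the same order. S100g and Trpv5 (5.47, 0.88 and 1.70) were the genes called higher in all 3. The calls of S100g held under every other setting tried. Those of Trpv5 between c-Kit and DBA and between CCD and cTAL were lost under several, as given above. Atp2b1 was called in 1 of the 3, at 0.36, -0.71 and -0.90. Slc12a3 was called in the GFP comparison, at 3.12, and had values of 0.17 and 0.39 in the others. The tables were normalized separately, and no test between comparisons was made.

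**Figure D5:**
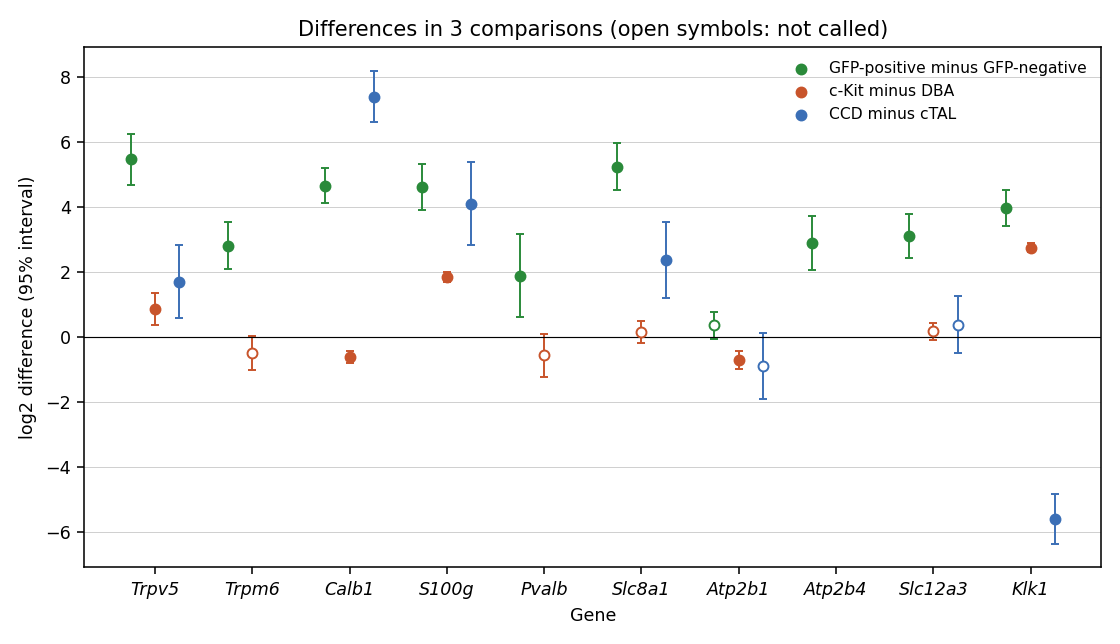
log2 difference with its 95% interval for each gene in the GFP (green), c-Kit against DBA (orange) and CCD against cTAL (blue) comparisons; filled symbols passed the test and open ones did not, and genes under the low-value filter have no symbol. Klk1 lies above 0 in 2 comparisons and at -5.60 in the third, and Atp2b1 passed the test in 1 of 3, at -0.71.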

How the data were processed

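The deposited tables were used as the authors made them. TPM values of the single cells, 4 bulk fractions and 19 tubules were deposited by the authors; STAR 2.5.1b, RSEM 1.2.31 and Seurat are named in the submitters' processing notes, with GRCm38.p5. The unit of the tubule table was read from its column sums. For the GFP samples the authors deposited read counts (HTSeq, RefSeq, mm10, per the file headers and names) and RPKM values; reads in no gene, 66.7% to 72.8% of those listed, stayed out. The strand mode of the counting was not stated.

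GFP counts were tested with edgeR 4.0.16 (TMM, filterByExpr, quasi-likelihood), and TPM values with limma 3.58.1 on log2(TPM + 1) with a variance trend, for genes whose mean reached 1 TPM; Benjamini-Hochberg adjustment covered all genes tested, at a threshold of 0.05. The scripts were tested on simulated data. RPKM entered 1 alternative and the levels between genes. Single cells were summarised with Python 3.11.15 and scipy 1.17.1, with no test; columns show the type but not the sample, so sort labels were not assigned to cells. The alternatives tried were DESeq2 1.42.0, other size factors, filters, pseudocounts and normalizations, sample weights, a replicate block, and leaving out each sample.

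The genes and lists were chosen with earlier results of these data known. Named besides the 10 genes are the called list genes with the largest differences, up to 4 per list and comparison, and the 5 genes most like Calb1 or Slc12a3. Values of some list genes are not reported here; they stay in the fits and in the counts and medians of their lists. The distal convoluted and connecting tubule marker lists consist of these genes and are not reported apart.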

Additional observations from a re-analysis of the deposited data

Results flagged for a closer look

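In 3 of 9 sets of values over the 8 cTAL tubules, the highest tubule stood far from the others on log2(TPM + 1), by Dixon's gap over range with a critical value of 0.526. Chance flags about 1 in 20 sets of continuous values, a rate that does not apply to Slc8a1 and Pvalb, which were listed at 0 in 7 and 6 of the 8 tubules. Calb1 was at 14.39 TPM in the tubule m7_cTAL1, with the next at 2.62 TPM. Pvalb was at 0.93 TPM in the same tubule, with the next at 0.04 TPM. Slc8a1 was at 7.02 TPM in m2_cTAL1, with the other 7 listed at 0.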

How the results depend on the processing

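For members tested in the main fits, the direction held under every alternative run with 1 exception. That was Slc12a3 between CCD and cTAL, which was 0.39 and became -0.30 after quantile normalization. Members under the low-value filter of a main fit were not followed. Of these, Pvalb reversed between the tubules: the ratio of its CCD to its cTAL mean was 0.277, and 5.89 without m7_cTAL1. All these means were under 1 TPM. Over all member values under the alternatives, 369 kept their side of the threshold and direction, 13 lost a call and 2 gained one. The cause of these changes was not tested. The number of genes called between GFP groups was 1639 with limma on RPKM, against 5101, and between CCD and cTAL 4401 with array quality weights, against 2526. Leaving out 1 library gave 3616 to 4211 called genes for GFP, 3458 to 5701 for c-Kit against DBA (3600 without DBA replicate 1 and 3458 without DBA replicate 2, against 6348) and 2239 to 3078 for the tubules, the last without m2_CCD2. Leaving out 1 library left 8 to 9 members called higher and 0 lower for GFP, 2 to 3 higher and 1 to 2 lower for c-Kit, and 3 to 4 higher and 1 lower for CCD. With a mean of at least 10 TPM, 2 members remained called higher in CCD, since Slc8a1 and Trpv5 were no longer tested, and quantile normalization gave 2 members lower in CCD. Of the 10 genes, 5 had their highest mean in principal cells, against 1 by the median over cells; by share of cells at 1 TPM the number was 5, and at 0.1 TPM it was 3.

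Replicate numbers were not shown to pair the samples. The RPKM columns name a first and a second experiment, each with a GFP-positive and a GFP-negative sample. They are not stated to be the replicate numbers of the counts, and limma on RPKM was run without that pairing. The correlation of deviations of same-numbered samples was 0.19 for GFP and 0.05 for c-Kit and DBA, and 0.00 to 0.21 for column prefixes shared by CCD and cTAL tubules. With the replicate block 5897 genes were called for GFP and 6271 for c-Kit against DBA, and with a block by column prefix, added after seeing the data, 2763 for the tubules; 9, 5 and 5 members were called, as without it. The mean per prefix, also added after seeing the data, gave 1823. Depth is unknown for TPM, which limits what a value of 0 shows.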
